A study of Mus musculus with 121 samples.

Results

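RNA was sequenced from the prefrontal cortex (PFC) of mice carrying 1 altered copy of Gdnf and of their wild-type littermates, after Cre recombinase had been delivered to the striatum by an adeno-associated virus (AAV-Cre). The libraries were chosen by their titles, those that start with A_PFC_HET against those that start with A_PFC_WT. This gave 7 heterozygous (HET) and 7 wild-type (WT) libraries, 14 of the 121 in the series, each from a mouse of its own and named here by genotype and mouse number. The 8 homozygous (HOM) PFC libraries of the same model were in the same fit. Of the 24412 genes in the table, 14628 reached 1 cpm (read counts scaled to library size) in at least 3 of these 22 libraries and were tested.

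HET mice had the genotype wt/cKU, WT mice wt/wt and HOM mice cKU/cKU, in the strain labelled GDNF cKU +AAV-Cre on a 129Ola/ICR/C57bl6 mixed background. All were adult males of 5-7 months, and every group, WT included, had received AAV-Cre in the striatum of both hemispheres at 3-5 months. Cre acts only where the virus reached, and the virus was injected into the striatum, not the PFC. In the cKU allele, recombination replaces the native 3′ untranslated region of Gdnf, so counting over annotated exons misses transcripts of a recombined allele there. Total counts ran from 11217046 to 17732744 in WT libraries (median 15765525) and from 9869584 to 17885830 in HET libraries (median 14999790).

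GDNF is a secreted growth factor that binds the co-receptor GFRα1 and signals through the receptor tyrosine kinase RET. In the adult brain it is made mainly by neurons of the striatum and is known for its support of the dopamine neurons of the midbrain. The PFC receives dopamine fibres from the midbrain, and its circuits are built from glutamatergic pyramidal neurons, GABAergic interneurons and glia.

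In HET PFC, the medians of GABA-A and metabotropic glutamate receptors, synaptic adhesion, axon guidance and ion channel genes lay slightly above WT. Genes of microglia, astrocytes, oligodendrocyte precursors, vessels, complement, antigen presentation and cytosolic ribosomes lay slightly below. The 12 subunits of the GABA-A receptor, the main inhibitory receptor of the brain, had a median log2 fold change of 0.16 (11 of 12 higher), and the 11 complement genes one of -0.25 (10 of 11 lower), against -0.0022 over all genes tested (49.3% higher). The groups overlapped in these levels, and no gene passed edgeR's quasi-likelihood test in the fit of the 22 libraries, while other fits and tests called some. The 7 HET libraries all lay below or above the 7 WT libraries for 13 of 14628 genes (0.0889%). Random order alone separates some genes in this way. The 13 included Jchain, Myh11 and Daam2 on the low side and Pcdha9, Ran and Sqle on the high side.

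By edgeR's quasi-likelihood test 0 of 14628 genes had a Benjamini-Hochberg adjusted p under 0.1, the smallest being 0.34. An unadjusted p under 0.05 was reached by 1806 genes (12.3%), 961 higher in HET (6.57%) and 845 lower (5.78%). The median absolute log2 fold change of these genes was 0.21, and it was at least 0.5 for 29 of the higher and 80 of the lower ones. Other tools gave other counts at the same threshold: edgeR's likelihood ratio test called 248 genes (1.70%), 160 higher (1.09%) and 88 lower (0.602%), DESeq2 called 6 of the 2717 genes it gave an adjusted p, and edgeR's newer quasi-likelihood mode called 0. The likelihood ratio test was run with the spread expected at a gene's expression level, without an estimate for each gene. Genes that vary more than this between libraries pass it more easily. Ttr, high in HET_3676 alone, was among its calls. By quasi-likelihood with only the WT and HET libraries in the fit 1 gene was called, Jchain. With the 3 regions of the AAV-Cre mice in 1 fit 193 genes were called. That fit had no block for the mouse, though the regions came from the same mice. Leaving out 1 library left the count of 0 as it was in each of 14 fits. It moved the 961 genes higher at an unadjusted p under 0.05 to 612 without HET_3676, 629 without HET_3688, 585 without WT_3587 and 487 without WT_3588. Without WT_3588 the smallest adjusted p of all genes was 0.669. Where 0.34 or 0.669 is given below for a gene, it is the smallest value of that fit. Many genes share it, so it does not show that a single gene rests on WT_3588.

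Before the gene groups, the content of the dissected pieces is given, because some libraries stand apart in it. All 8 markers of cortical excitatory neurons passed the filter, which does not by itself test the PFC label. Their summed level ran from 1763 to 2141 cpm in WT and from 1835 to 2280 cpm in HET libraries. The most abundant of these markers was Slc17a7, the vesicular glutamate transporter of cortical neurons. Their median log2 fold change was 0.10 (0.07 without HET_3688, 0.17 without WT_3578), with 7 of 8 higher. Markers of striatal projection neurons were present too, with a summed level of 750.1 to 1910 cpm in WT (median 1013) and 914.2 to 1562 cpm in HET (median 1220), Ppp1r1b being the most abundant. The groups overlapped fully, and the 10 striatal markers had a median log2 fold change of -0.03 (-0.13 to 0.07 without 1 library).

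Markers of the olfactory bulb and of immature neurons, which lie close to the PFC in the forebrain, varied widely. Their summed level ran from 144.6 to 406.3 cpm in WT (median 170.7) and from 113.5 to 432.5 cpm in HET (median 279.9), with Cdhr1 as the most abundant gene. High libraries were found in each genotype, WT_3576 at 406.3 cpm, HET_3577, HET_3652 and HET_3750 at 432.5, 396.8 and 318 cpm and HOM_3687 at 362.6 cpm. All 8 markers were higher in HET, with a median log2 fold change of 0.36 (0.19 without HET_3577, 0.66 without WT_3576) and 4 of them called by the likelihood ratio test, against 1.09% of all genes. No marker of this list had an unadjusted p under 0.05 by quasi-likelihood.

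**Figure D1:**
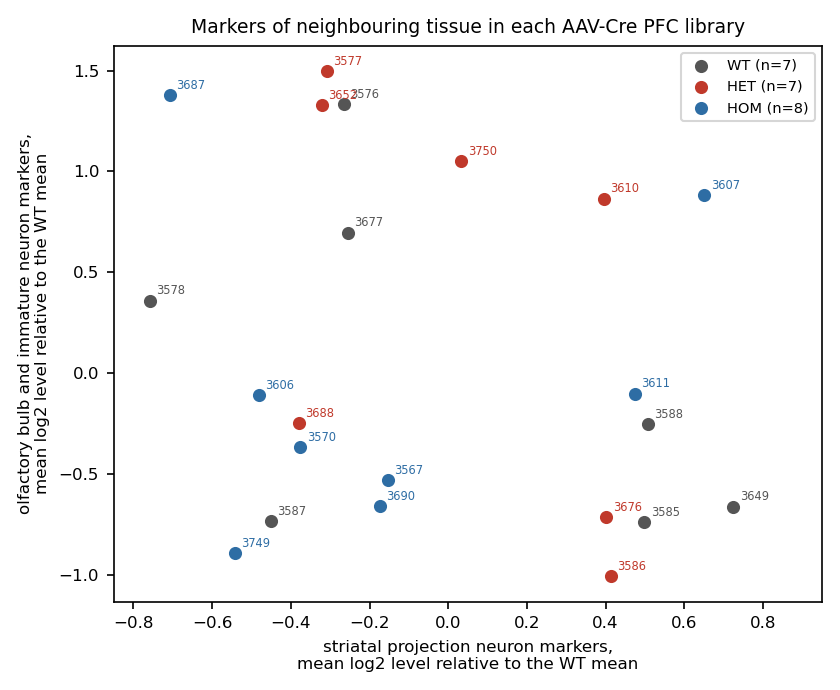
Each point is 1 AAV-Cre PFC library, labelled with its mouse number. The axes are the mean log2 levels of the striatal markers (horizontal) and of the olfactory bulb and immature neuron markers (vertical) relative to the WT mean, and libraries of the 3 genotypes are spread over both axes.

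The choroid plexus, which secretes cerebrospinal fluid, appeared in a single library. Ttr, its carrier protein for thyroid hormone and its most abundant transcript, stood at 0.885, 2.02 and 6.74 cpm (lowest, median, highest) in WT and at 1.62, 2.06 and 1162 cpm in HET. The value of 1162 cpm belonged to HET_3676, and the groups overlapped. Summed over the 4 markers tested of 7, this library had 1214 cpm while the other HET libraries ran from 7.952 to 22.46 cpm; Folr1, Otx2 and Kcne2 did not pass the filter. The log2 fold change of Ttr was 5.71, and -0.20 without HET_3676. F5 and Kl had their highest values in the same library, 17.1 and 30.6 cpm. Without HET_3676 the likelihood ratio test called 113 genes, 72 higher and 41 lower, and 100 of them were among the 248 (40.3% of the 248, 88.5% of the 113). This setting was chosen after the values were seen.

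Gdnf itself, the gene altered, was barely detected in PFC. Its level was 0.293, 0.993 and 1.16 cpm (lowest, median, highest) in WT and 0.303, 1.196 and 1.63 cpm in HET, from 5 to 22 counts per library. The groups overlapped, with 4 HET libraries above the highest WT library and the other 3 inside the WT range. The means were 0.816 ± 0.329 cpm in WT and 1.02 ± 0.541 cpm in HET (SD, n = 7 each), a log2 fold change of 0.30 with a standard error (SE) of 0.38 (0.14 to 0.48 without 1 library). The adjusted p was 0.773 (edgeR quasi-likelihood). In WT_3578 Gdnf (0.293 cpm) and Adora2a (16.1 cpm), an adenosine receptor of striatal neurons, were both at the lowest value of the WT group.

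In the striatum of the same mice Gdnf was higher than in PFC, at 5.49, 6.77 and 7.46 cpm in WT and 6.42, 7.46 and 9.50 cpm in HET. HET and WT overlapped in the striatum too, with means of 6.62 ± 0.711 cpm in WT and 7.60 ± 1.05 cpm in HET (SD, n = 7 each). In HOM striatum the mean was 8.71 ± 0.898 cpm (SD, n = 7). The lowest HOM value there, 7.65 cpm, lay above the highest WT value. The HET difference there was 0.20 on the log2 scale (adjusted p = 1, edgeR quasi-likelihood). Gdnf spans chromosome 15 from 7810048 to 7837580 (mm10), and its last exon, which holds the native 3′ untranslated region, makes up 3233 of the 4867 exonic bases counted.

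Receptors and partners of GDNF were measured at higher levels than Gdnf. Per kilobase of exon, WT PFC held 0.168 cpm of Gdnf, 0.891 of Ret, 11.4 of Gfra1, 19.8 of Gfra2 and 32.2 of Ncam1, an adhesion molecule that also binds GDNF. Ret, the signalling receptor, stood at 5.16, 6.55 and 8.84 cpm in WT and 5.71, 6.82 and 7.35 cpm in HET, a log2 fold change of 0.03. Gfra1, the GDNF-binding co-receptor, stood at 42.7, 57.7 and 59.0 cpm in WT and 39.8, 49.3 and 56.0 cpm in HET. All 7 HET libraries were below the WT median, with a log2 fold change of -0.12 (SE 0.09, -0.16 to -0.07 without 1 library). Both receptors overlapped between the groups, and the sign for Ret turned with single libraries (range without 1 library -0.03 to 0.11). Of the 8 tested of 11 GDNF family genes 3 were higher and none had an unadjusted p under 0.05; Nrtn, Pspn and Gfra3 did not pass the filter.

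Dopamine genes had no common direction. Th, which makes the dopamine precursor, is also expressed in olfactory bulb neurons, and its highest libraries were those with high olfactory markers. It stood at 2.58, 6.79 and 35.9 cpm in WT and 3.52, 17.1 and 42.9 cpm in HET, with a log2 fold change of 0.69 (0.37 to 1.31 without 1 library). Its adjusted p was 0.643 by edgeR quasi-likelihood and ran from 3.51e-06 (likelihood ratio test) to 0.85 (without HET_3577) over the alternatives. The groups overlapped over most of their range. Maob, an enzyme that breaks down dopamine, was at 29.4 to 35.6 cpm in WT and 25.8 to 32.7 cpm in HET, with a log2 fold change of -0.13. It was the only gene of the 10 in its list with an unadjusted p under 0.05, and the list's median was -0.01. The 7 receptors for dopamine and adenosine tested had a median of -0.02 (-0.12 to 0.08 without 1 library). Drd1 had 0.16 (0.05 to 0.33 without 1 library), Drd2 -0.13 (-0.26 to 0.08) and Adora2a -0.02 (-0.16 to 0.20). Nr4a2, a transcription factor of dopamine neurons that cortical neurons also express, had 0.06 (0.0062 to 0.13 without 1 library).

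Among the receptor and channel lists, GABA-A receptor subunits had the highest median. Of 13 members 12 were tested (Gabra6 did not pass the filter), and 11 were higher in HET. An unadjusted p under 0.05 was reached by 5 of these, against 6.57% of all genes. The likelihood ratio test called 3 as higher, against 1.09% of all genes. Summed, the subunits ran from 1278 to 1738 cpm in WT (median 1509) and from 1531 to 2036 cpm in HET (median 1705). All 7 HET libraries were above the WT median and 4 of 7 within the WT range of mean log2 level.

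Gabrb2, a subunit of this receptor, stood at 193, 243 and 281 cpm in WT and 235, 282 and 380 cpm in HET. The groups overlapped, with 4 HET libraries above every WT library and 6 above the WT median. Its means were 238 ± 36.8 and 299 ± 53.5 cpm (SD, n = 7 each), a log2 fold change of 0.33 (SE 0.12). The adjusted p was 0.34 by edgeR quasi-likelihood and ran from 0.00816 (likelihood ratio test) to 0.669 (without WT_3588) over the alternatives. Gphn, which anchors these receptors, was at 66.7 to 85.5 cpm in WT and 79.5 to 92.6 cpm in HET, a log2 fold change of 0.13.

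Excitatory receptors were looked at by class. The 7 metabotropic glutamate receptors had a median of 0.13 with 6 higher, led by Grm8 (0.34, SE 0.11) and Grm5 (0.21, SE 0.10). Without 1 library Grm5 ran from 0.13 to 0.27. Grm8 was called by the likelihood ratio test. The 9 AMPA and kainate subunits had a median of 0.05 (5 higher; 0.01 to 0.09 without 1 library), with Gria4 at 0.15. The 6 NMDA subunits tested had a median of 0.04 (4 higher; 0.0033 to 0.09 without 1 library) and none with an unadjusted p under 0.05.

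Receptors for serotonin and acetylcholine, the modulators that set cortical arousal, were higher in 15 of 18 with a median of 0.10 (0.07 to 0.15 without 1 library). Htr2a, the serotonin receptor of pyramidal neurons on which psychedelic drugs act, stood at 19.0, 20.7 and 28.2 cpm in WT and 23.03, 27.5 and 38.7 cpm in HET. All 7 HET libraries were above the WT median and 3 were above every WT library, so the groups overlapped in part. The means were 22.1 ± 3.28 and 29.1 ± 5.39 cpm (SD, n = 7 each), a 1.32-fold difference with a log2 fold change of 0.40 (SE 0.11). The adjusted p was 0.34 by edgeR quasi-likelihood and ran from 0.00901 (likelihood ratio test) to 0.669 (without WT_3588) over the alternatives. Htr5a (0.18) and Chrna5 (0.46) were the other members of this list with an unadjusted p under 0.05.

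Synaptic adhesion molecules, which hold the membranes of a synapse together, were higher in 23 of 26 with a median of 0.08 (0.05 without HET_3676, 0.12 without HET_3652), and 4 had an unadjusted p under 0.05 against 6.57% of all genes. These were Cntnap2 (0.25, SE 0.07), Nrxn3 (0.17), Slitrk1 (0.19) and Nlgn1 (0.18). For Cntnap2 6 of 7 HET libraries were above the highest WT library, HET_3586 being the exception at 88.0 cpm. The list's mean log2 level ran from -0.07 to 0.07 in WT and from -0.03 to 0.19 in HET, relative to the WT mean, and 4 HET libraries were above every WT library. Of 21 genes of presynaptic release 15 were higher (median 0.07, and 0.04 without HET_3688), with Slc17a6 (0.37, SE 0.12), the glutamate transporter of subcortical neurons, Syt1 (0.20) and Snap25 (0.20) among those at an unadjusted p under 0.05. Postsynaptic scaffold genes had no common direction, 8 of 17 higher with a median of -0.01.

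Camk2a, the kinase abundant in excitatory synapses, went the other way within the postsynaptic list. It stood at 4399, 5275 and 5671 cpm in WT and 3700, 4127 and 5302 cpm in HET, and 5 HET libraries were below every WT library. Its log2 fold change was -0.23 (SE 0.08; adjusted p = 0.34, edgeR quasi-likelihood). Homer1, a scaffold of metabotropic glutamate receptors, had 0.26 in the same list and was called by the likelihood ratio test.

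Axon guidance genes, which steer and stabilise connections, were higher in 25 of 30 with a median of 0.10, 7 of them with an unadjusted p under 0.05 (6.57% of all genes) and 1 lower (5.78% of all genes). Sema3e, a secreted repellent, stood at 16.4, 23.5 and 28.4 cpm in WT and 22.4, 31.4 and 38.0 cpm in HET. A single HET library was below the WT median and 5 were above every WT library. The log2 fold change of Sema3e was 0.44 (SE 0.11), with adjusted p = 0.34 by edgeR quasi-likelihood and a range from 0.002 (likelihood ratio test) to 0.669 (without WT_3588). Robo2 (0.30), Epha5 (0.20) and Unc5d (0.23), receptors for guidance cues, were higher as well. Of these Robo2 was called by the likelihood ratio test.

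Ion channels and neuronal identity genes lay close to the same small offset. Of 22 calcium and potassium channels 17 were higher (median 0.10, and 0.07 without HET_3750), with Kcnd2, which carries A-type potassium current, at 0.23 (SE 0.08). Of 8 sodium channels 7 were higher (median 0.06, and 0.12 without WT_3649), with Scn2a at 0.23 (SE 0.08). Of 16 genes of cortical layers 13 were higher (median 0.10, and 0.16 without WT_3578), with Etv1, a layer 5 marker, at 0.29. Of 13 interneuron genes 9 were higher (median 0.115, and 0.05 with tissue covariates) and 0 had an unadjusted p under 0.05 by edgeR quasi-likelihood, while the likelihood ratio test called 3 (1.09% of all genes), Reln (0.33) and Gad1 (0.26) among them. Gad2, not called, had 0.19. The 14 neuropeptides had a median of 0.0017, 7 higher and 7 lower. The 20 immediate-early genes, markers of recent activity, had a median of 0.04 in HET (-0.07 to 0.13 without 1 library). By edgeR quasi-likelihood 0 of them had an unadjusted p under 0.05. Btg2 alone was called by the likelihood ratio test, at -0.40 (-0.54 to -0.26 without 1 library).

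**Figure D2:**
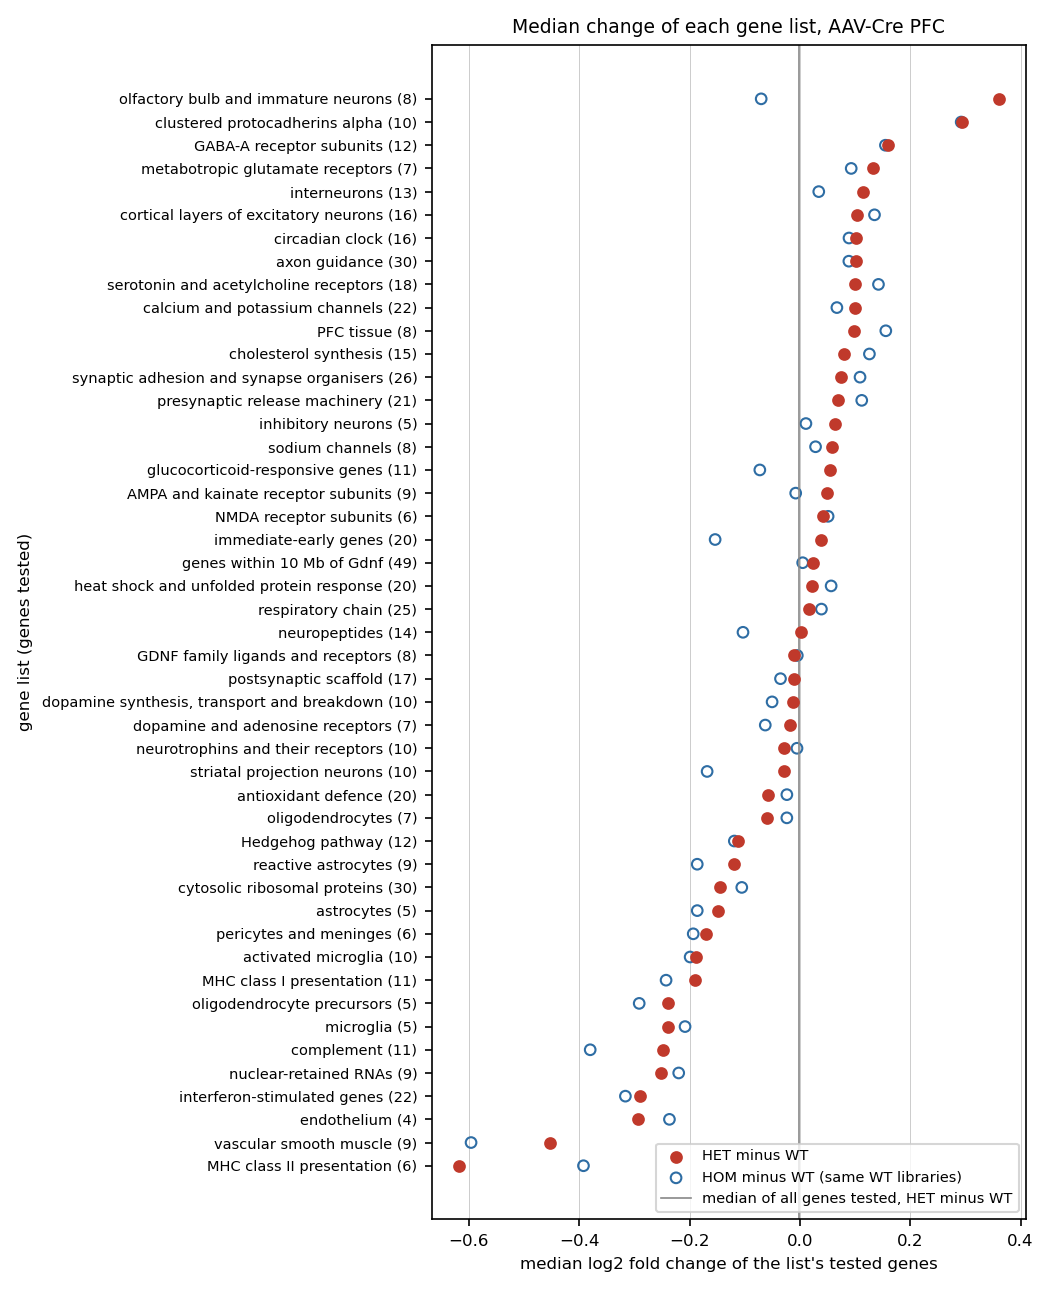
Median log2 fold change of the tested genes of each list in AAV-Cre PFC, HET minus WT (filled) and HOM minus WT (open), the number of genes tested in brackets. Most synaptic and channel lists lie to the right of the line for all genes tested and glial, vascular and immune lists to the left; both comparisons use the same 7 WT libraries, and the choroid plexus, erythrocyte and plasma cell lists are left out for their scale or few tested genes.

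Complement genes, whose products tag synapses and debris for uptake by microglia, were lower in 10 of 11 tested with a median of -0.25. Of these 6 had an unadjusted p under 0.05, against 5.78% of all genes. The likelihood ratio test called 4 as lower, against 0.602% of all genes. Summed, the complement genes tested ran from 221 to 341.6 cpm in WT (median 254.8) and from 180.8 to 258 cpm in HET (median 205.9). The most abundant was C1qa. All 7 HET libraries were below the WT median of the mean log2 level and 4 were below every WT library.

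C4b, a complement component made by astrocytes, stood at 33.4, 39.0 and 70.5 cpm in WT and 26.1, 31.5 and 42.0 cpm in HET. In 5 HET libraries it was below every WT library, and 1 HET library was above the WT median. The means were 45.0 ± 13.4 and 32.4 ± 5.30 cpm (SD, n = 7 each), a log2 fold change of -0.48 (SE 0.13). The adjusted p was 0.34 by edgeR quasi-likelihood and ran from 6.77e-05 (likelihood ratio test) to 0.669 (without WT_3588) over the alternatives. C1qb (-0.33) and C1qc (-0.37), chains of the initiating complex C1q made by microglia, were lower by like amounts. C3, the central component, was near the limit of detection, at 0.448 to 3.20 cpm in WT and 0.0607 to 0.880 cpm in HET. Its log2 fold change was -1.30 (SE 0.42), and ran from -1.51 to -0.83 without 1 library. The highest WT value was that of WT_3588.

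Antigen presentation genes were lower too. All 6 tested MHC class II genes were lower with a median of -0.62, 3 of them called by the likelihood ratio test against 0.602% of all genes. Cd74, the invariant chain of class II molecules, stood at 6.19, 11.7 and 19.6 cpm in WT and 4.37, 6.51 and 13.3 cpm in HET, a log2 fold change of -0.68 (SE 0.25). H2-Aa and H2-Ab1, the chains of a class II molecule, had -0.75 and -0.65, and HET_3652 alone was above the WT median in each of these 3 genes. Of 11 MHC class I genes 10 were lower (median -0.19). H2-K1 had -0.33 (-0.40 to -0.19 without 1 library), its light chain B2m -0.19 and the loading factor Tapbp -0.18. Reads of H2 genes may be split with near-identical family members, so single values of H2 genes are uncertain.

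Interferon-stimulated genes were lower in 20 of 22 with a median of -0.29, of which Gbp3 (-0.44) and Ifi35 (-0.31) had an unadjusted p under 0.05 (5.78% of all genes). This list leans on a library: WT_3588 held the highest values of Gbp3 and Oasl2, 9.05 and 11.9 cpm, and without it the median was -0.15 and Gbp3 had -0.26. Genes of activated microglia were lower in 7 of 10 (median -0.19), with Tyrobp (-0.40), Apoe (-0.30) and Axl (-0.21) at an unadjusted p under 0.05 (5.78% of all genes). Apoe, the lipid carrier made by astrocytes and microglia, stood at 1039, 1558 and 1932 cpm in WT and 1053, 1189 and 1419 cpm in HET, all 7 HET libraries below the WT median yet inside the WT range. Genes of reactive astrocytes had a median of -0.12 (6 of 9 lower), with Vim at -0.22, and a median of -0.03 without WT_3588.

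Markers of resting glia and vessels moved in the same direction as these immune genes. All 5 microglia markers were lower with a median of -0.24, and 4 had an unadjusted p under 0.05 against 5.78% of all genes, among them Tmem119 (-0.30) and Cx3cr1 (-0.26). Their summed level was 371 to 493.9 cpm in WT (median 436.2) and 327.7 to 423.8 cpm in HET (median 369.9), with Csf1r the most abundant. In bulk tissue fewer cells of a type and less RNA per cell cannot be told apart, and the part of cell content in the complement and MHC values was not tested. All 7 HET libraries were below the WT median of the microglia list, and 3 were below every WT library.

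All 5 astrocyte markers were lower (median -0.15), led by Gja1, the gap junction protein of astrocytes (-0.23), and Slc1a3, the glutamate transporter and the most abundant of the list (-0.19). Their summed level was 1345 to 1746 cpm in WT and 1155 to 1480 cpm in HET. All 5 markers of oligodendrocyte precursors were lower (median -0.24), with Pdgfra, their growth factor receptor and most abundant marker, at 77.4 to 86.1 cpm in WT and 62.7 to 79.6 cpm in HET (-0.17) and Gpr17 at -0.33. All 7 HET libraries lay below the WT median for both lists, and 3 and 4 of them below every WT library. Of the markers of mature oligodendrocytes 7 of 7 were lower with a median of -0.06 (-0.01 without WT_3578, -0.11 without HET_3652), and Mbp, the myelin protein and most abundant, was the only gene of these with an unadjusted p under 0.05 (-0.16).

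Vessel markers were below WT as well. The 4 endothelial markers were all lower (median -0.29, and -0.19 without WT_3588) with summed levels of 122.2 to 182.6 cpm in WT and 110.9 to 144.5 cpm in HET, Flt1, a receptor for vascular growth factor, being the most abundant (-0.26) and Pecam1 (-0.35) called by the likelihood ratio test. All 6 markers of pericytes and meninges were lower (median -0.17), with Vtn the most abundant at -0.30. A list of contractile genes of vascular smooth muscle, chosen after Myh11 and Acta2 had been seen, had 9 of 9 tested lower with a median of -0.45 and 6 at an unadjusted p under 0.05 (5.78% of all genes); Mylk was its most abundant gene, and Myocd did not pass the filter.

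Myh11, the smooth muscle myosin heavy chain, stood at 9.33, 12.7 and 17.2 cpm in WT and 6.01, 8.07 and 9.33 cpm in HET. The highest HET library lay just below the lowest WT library, so the groups did not overlap. This was the case for 13 of 14628 genes (0.0889%), 6 with HET above WT (0.0410%) and 7 with HET below WT (0.0479%). With n = 7 each, random order alone separates a few of so many genes, so full separation is not by itself a result. The means of Myh11 were 12.7 ± 3.38 and 8.01 ± 1.11 cpm (SD, n = 7 each), a 0.629-fold level and a log2 fold change of -0.67 (SE 0.16). The adjusted p was 0.34 by edgeR quasi-likelihood and ran from 0.000513 (likelihood ratio test) to 0.669 (without WT_3588). Acta2, smooth muscle actin, had a log2 fold change of -0.77 (SE 0.19) and Tagln -0.50, with 3 and 1 HET libraries below every WT library.

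**Figure D3:**
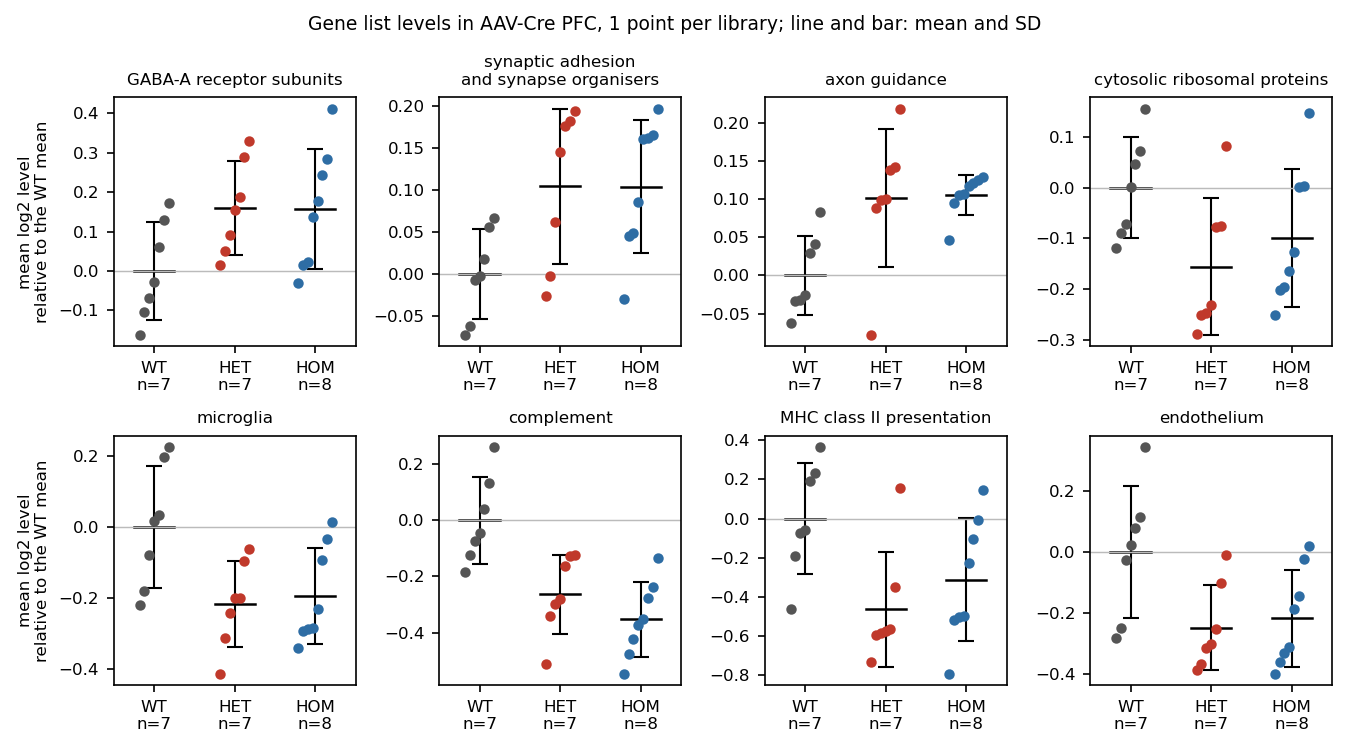
Mean log2 level of the tested genes of 8 lists in each AAV-Cre PFC library, relative to the WT mean (points), with the mean and SD of each genotype (line and bar; n = 7 WT, 7 HET and 8 HOM). HET and WT libraries overlap in every panel, with the HET mean above WT in the upper panels except ribosomal proteins and below WT in the lower panels.

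Jchain had the lowest p of all genes. It encodes the joining chain of secreted antibodies and is a gene of plasma cells. It stood at 2.46, 5.12 and 9.17 cpm in WT and 0.962, 1.82 and 2.15 cpm in HET, and all 7 HET libraries were below the lowest WT library. The means were 5.26 ± 2.17 and 1.66 ± 0.441 cpm (SD, n = 7 each), a 0.325-fold level and a log2 fold change of -1.62 (SE 0.36). The adjusted p was 0.34 by edgeR quasi-likelihood and ran from 9.67e-12 (likelihood ratio test) to 0.669 (without WT_3588) over the alternatives. The log2 fold change of Jchain ran from -1.75 to -1.445 without 1 library. In HOM PFC the range of Jchain was 1.49 to 10.4 cpm, across both groups. Of 9 genes in a list of plasma and B cells, chosen after seeing Jchain, 3 passed the filter and 2 were lower.

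The other genes among the 10 lowest p on the low side have varied roles. Cldn10, a tight junction protein, stood at 37.6, 38.9 and 51.1 cpm in WT and 28.6, 31.7 and 39.6 cpm in HET, with 6 HET libraries below every WT library (-0.34, SE 0.08). S1pr1, a sphingosine phosphate receptor of astrocytes and endothelium, stood at 175 to 215 cpm in WT and 149 to 190 cpm in HET (-0.25, SE 0.06). Gli3, a transcription factor of the Hedgehog pathway, stood at 14.2 to 20.5 cpm in WT and 10.2 to 15.3 cpm in HET (-0.46, SE 0.12). Each of these genes overlapped between the groups, and all 7 HET libraries of S1pr1 and Gli3 were below the WT median. Fyb, an adaptor of immune cells, had -0.47, Pear1 had -0.46, Tmem81 had -0.44 with no overlap, and Tmem181b-ps had -0.25, uncertain as a pseudogene whose reads may be shared with its parent genes. Daam2, a formin of glia, stood at 141, 148 and 168 cpm in WT and 108, 129 and 136 cpm in HET with no overlap (-0.25, SE 0.07). Clmn, Epb41l2 and Ilk were the other genes with all HET libraries below WT (-0.21, -0.18 and -0.16), and Ilk was named after its values were seen.

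The 6 genes called by DESeq2 were Atp6v1h, higher, and S1pr1, Fgfr3, Tmem181b-ps, Smpd4 and Daam2, lower, each with adjusted p = 0.0941 by DESeq2. Fgfr3 and Smpd4 were named after their values were seen, with edgeR log2 fold changes of -0.25 and -0.25. Of the 2717 genes with an adjusted p in DESeq2, the likelihood ratio test and DESeq2 shared 2 calls, Tmem181b-ps and Daam2.

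On the high side the lowest p belonged to Spata5, an ATPase of ribosome maturation, at 8.43, 9.17 and 11.0 cpm in WT and 10.1, 11.8 and 12.9 cpm in HET (0.31, SE 0.07). A single HET library of Spata5 fell inside the WT range, and the other 6 were above it. Ttr was also among the 10 lowest p on this side, though its log2 fold change was -0.20 without HET_3676. Pcdha9, a clustered protocadherin of the neuronal surface, stood at 1.65, 2.40 and 3.08 cpm in WT and 3.11, 3.98 and 5.10 cpm in HET, and its groups did not overlap. Its log2 fold change was 0.71 (SE 0.18), with adjusted p = 0.34 by edgeR quasi-likelihood. Isoforms of the Pcdha cluster share their constant exons, so single members are uncertain. In a list of the α protocadherins, chosen after Pcdha9 was seen, 9 of 10 tested were higher with a median of 0.29 (0.19 without HET_3688), Pcdha12 having 0.63, and Pcdhac2 was the most abundant.

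Further genes with low p were Sccpdh (0.25), Il1rapl1, a synaptic organiser linked to intellectual disability (0.49), Hs6st2, a heparan sulfate sulfotransferase (0.29), Msantd4 (0.27), Atp6v1h, a subunit of the vacuolar proton pump (0.23), and Slc25a32, a mitochondrial folate carrier (0.44). In each of these genes all 7 HET libraries were above the WT median and 4 to 6 were above every WT library. Ran, the GTPase of nuclear transport, stood at 92.0, 102 and 106 cpm in WT and 106, 111 and 122 cpm in HET with no overlap (0.18, SE 0.05). Oxct1, Tlk2 and Tmem59 had no overlap either, with small log2 fold changes of 0.13, 0.08 and 0.06. Among the likelihood ratio calls with a mean of at least 2 cpm and the largest differences, Omp (1.04; 0.48 to 2.66 without 1 library) and Tbx21 (0.93; 0.63 to 1.63) are genes of the olfactory system, and F5 (1.86) and Kl (0.89) were highest in HET_3676 and had 0.44 and -0.23 without it. On the low side AA465934 (-1.13), Aqp9 (-0.76) and Ttll8 (-0.70) had the largest differences above this level beside Jchain, Acta2 and H2-Aa. Cthrc1, a secreted matrix protein, had 0.81, all 7 HET libraries above the WT median.

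**Figure D4:**
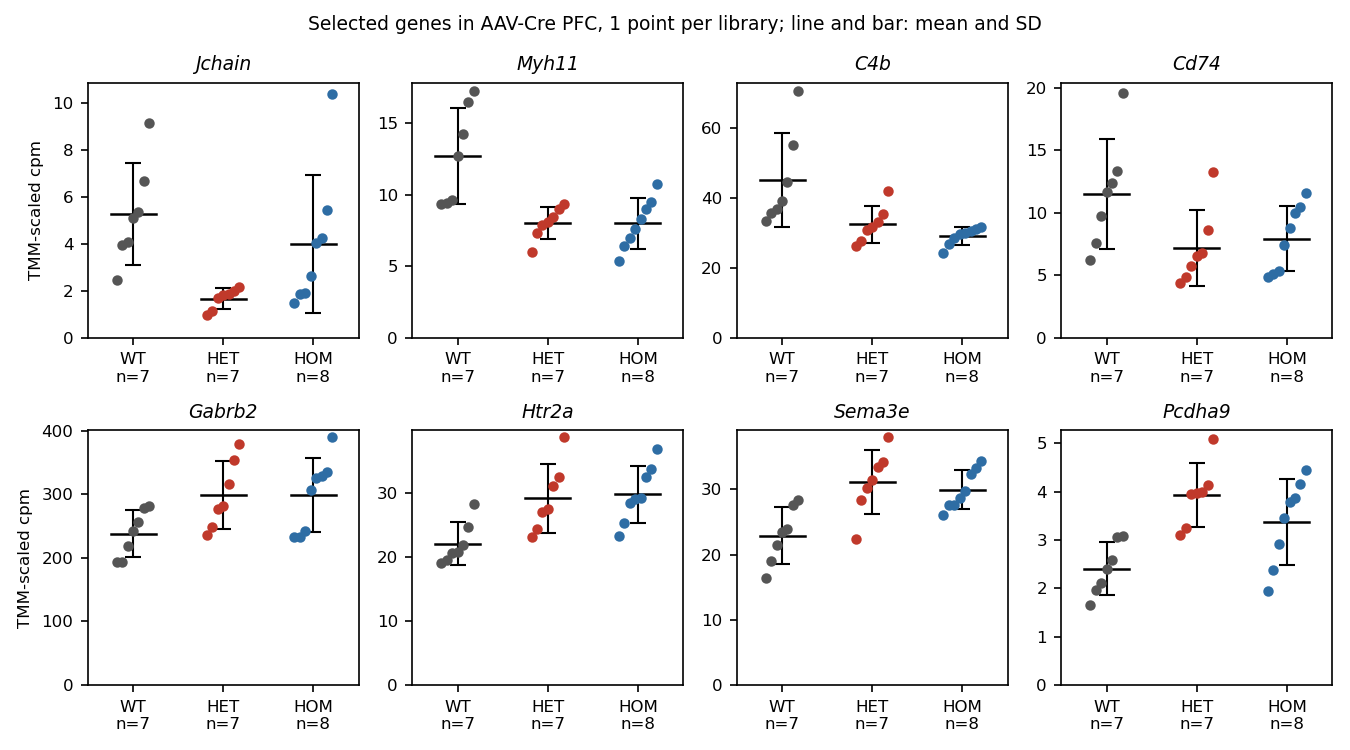
Level of 8 genes in each AAV-Cre PFC library in TMM-scaled cpm (points), with the mean and SD of each genotype (line and bar; n = 7 WT, 7 HET and 8 HOM). Jchain, Myh11 and Pcdha9 show no overlap between HET and WT libraries, and the other genes overlap in part.

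Cytosolic ribosomal proteins were lower in 29 of 30 with a median of -0.14, of which 12 had an unadjusted p under 0.05 against 5.78% of all genes. Summed, they ran from 4387 to 5203 cpm in WT (median 4861) and from 3894 to 5061 cpm in HET (median 4098), and 4 HET libraries were below every WT library in mean log2 level. Rps27 stood at 98.9, 107 and 135 cpm in WT and 73.6, 88.2 and 102 cpm in HET (-0.34, SE 0.09), with 6 HET libraries below every WT library. Rpl41 (-0.31), Rps29 (-0.34) and Rps15 (-0.19) were lower as well. Ribosomal protein genes have many processed pseudogenes, so reads may be split and single values are uncertain.

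Exonic length moved with the differences. Among the 3659 genes of shortest exonic length (30 to 1930 bases) 37.7% were higher in HET, with 101 higher and 273 lower at an unadjusted p under 0.05. Among the 3657 longest (4549 to 104320 bases) 57.3% were higher, with 356 higher and 175 lower. Nuclear-retained RNAs, a list chosen after the values were seen, were lower in 9 of 9 tested with a median of -0.25; Meg3, the most abundant, stood at 3726 to 5439 cpm in WT and 3405 to 4554 cpm in HET (-0.28), and Neat1 had -0.35. Many ribosomal protein genes are short and many receptor and adhesion genes are long, and the part of length in the values of these lists was not tested.

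Metabolic lists were mixed. Cholesterol synthesis genes were higher in 12 of 15 with a median of 0.08 (0.05 without HET_3688), 5 of them with an unadjusted p under 0.05 against 6.57% of all genes. Sqle, the squalene epoxidase, stood at 55.6, 61.4 and 65.3 cpm in WT and 65.6, 67.3 and 75.5 cpm in HET with no overlap (0.16, SE 0.05). Idi1, an isoprenoid isomerase, had 0.36 (SE 0.14), and all 7 HET libraries were above the WT median of the list. The 25 respiratory chain genes had a median of 0.02 with Cox5a at 0.19, and the 20 antioxidant genes a median of -0.06 (-0.01 without HET_3750) with Sod2 at 0.21 and Cat at -0.15. Genes within 10 Mb of Gdnf, 49 of 70 tested, had a median of 0.02, 26 higher, with 6 higher and 5 lower at an unadjusted p under 0.05 (6.57% and 5.78% of all genes), Fyb, Oxct1, Rai14 (-0.25) and Dab2 (-0.29) having the lowest p.

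The values of HOM mice are given beside those of HET mice. Both comparisons share the same 7 WT libraries, so their values are only set side by side. The HOM minus WT medians were 0.155 for GABA-A subunits, 0.11 for synaptic adhesion, 0.09 for axon guidance, -0.38 for complement, -0.39 for MHC class II, -0.21 for microglia, -0.24 for endothelium and -0.11 for ribosomal proteins. Immediate-early genes had -0.15 in HOM and olfactory markers -0.07, against 0.04 and 0.36 in HET. Tested directly, HET against HOM gave 0 of 14628 genes at an adjusted p under 0.1 by edgeR quasi-likelihood and 310 (2.12%) at an unadjusted p under 0.05, with 89 by the likelihood ratio test and 0 by DESeq2. For Jchain the log2 difference between HET and HOM was -1.22 (adjusted p = 1, edgeR quasi-likelihood).

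Whether the HET difference in PFC departs from that in other regions of the same mice was tested as an interaction. Against the striatum 0 of 15075 genes passed by edgeR quasi-likelihood, with 630 (4.18%) at an unadjusted p under 0.05 and 34 by the likelihood ratio test. With the 21 mice as a block 0 of 15065 passed, with 1220 at an unadjusted p under 0.05. Against the substantia nigra (SN) 0 of 15199 passed, with 1842 (12.1%) at an unadjusted p under 0.05 and 461 by the likelihood ratio test, and with the 22 mice as a block 0 passed, with 2041 at an unadjusted p under 0.05. List medians in the striatum lay closer to 0 than in PFC for GABA-A subunits (0.02), microglia (-0.11), endothelium (-0.01) and ribosomal proteins (0.0048), and further from 0 for MHC class II (-1.17), where the highest WT library held 53.4 cpm of H2-Aa against a WT median of 8.21 cpm. In the SN of HET mice the medians were -0.16 for GABA-A subunits, 0.14 for complement and 0.22 for MHC class II. The median of the difference PFC minus SN was 0.35 over the 12 GABA-A subunits, all 12 positive and 7 with an unadjusted p under 0.05 against 6.58% of all genes, and -0.38 over 12 complement genes, all negative. Tissue markers moved with this difference: its median was 0.58 for cortical markers, 0.47 for striatal markers, -2.30 for choroid plexus and -1.29 for vascular smooth muscle, and their part in the result was not tested.

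In the Nestin-Cre model Cre is driven in neural progenitors from before birth, so that the cells of the brain derived from them carry the recombined allele. Its PFC libraries, 8 WT and 6 HET in the strain labelled GDNF cKU x Nestin-Cre, came from mice of 2 months without injection. The HET difference departed between the models for 100 of 14757 genes (0.678%) by edgeR quasi-likelihood at an adjusted p under 0.1, 30 more positive and 70 more negative in AAV-Cre mice. The count was 208 without N_PFC_WT_4575, whose genotype label differs between regions, and 961 with olfactory and striatal marker levels as covariates, and these held 100 and 97 of the 100 genes. Age, injection, cohort and model cannot be told apart in this comparison. Tissue markers moved with it too: the 10 striatal markers had a median difference of 0.73 (7 with an unadjusted p under 0.05, against 7.34% of all genes) and the 7 oligodendrocyte markers one of 0.39 (5 with an unadjusted p under 0.05), with medians of -0.69 and -0.42 in Nestin-Cre HET PFC. Their part beyond the covariate fit was not tested.

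Of the 193 genes named by rule or after their values were seen, 13 were in that set, against 0.678% of all genes. Many of the 193 were chosen for a small p in AAV-Cre PFC, which enters this difference. Gli3 had a log2 fold change of -0.46 in AAV-Cre and 0.28 in Nestin-Cre mice (difference -0.74, adjusted p = 0.0494, edgeR quasi-likelihood). Htr2a had 0.40 and -0.23 (difference 0.64, adjusted p = 0.0987, edgeR quasi-likelihood), with 31.3 ± 5.07 cpm (SD, n = 8) in Nestin-Cre WT and 26.5 ± 4.92 cpm (SD, n = 6) in Nestin-Cre HET. Cldn10 had -0.34 and 0.16 (difference -0.49, adjusted p = 0.0435, edgeR quasi-likelihood). The others were Spata5, Atp6v1h, Ran, Sqle and Cox5a with a positive difference and S1pr1, Daam2, Gja1, Meg3 and Smpd4 with a negative one. In Nestin-Cre PFC the medians of GABA-A subunits, complement and MHC class II were 0.0024, -0.05 and 0.14.

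The HET differences in AAV-Cre PFC rest on 7 mice a group. The part of olfactory and striatal tissue in the single-gene values was not tested beyond the covariate fit, in which 0 genes passed by edgeR quasi-likelihood and 1282 higher and 1063 lower genes had an unadjusted p under 0.05.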

How the data were processed

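Raw read counts per gene were deposited by the authors, made with bcl2fastq 2.20.0.422, STAR 2.5.2b on mm10 and featureCounts 1.5.1. Genes reaching 1 cpm in 3 or more of the 22 AAV-Cre PFC libraries were kept. In R 4.3.3, edgeR 4.0.16 fitted the 3 genotypes with TMM factors (0.980 to 1.03), trended dispersion and the quasi-likelihood F test (legacy mode), adjusted after Benjamini and Hochberg with a threshold of 0.1. Alternatives were edgeR's likelihood ratio test, its newer mode, DESeq2 1.42.0, other size factors, no filter, only WT and HET libraries, the 3 regions in 1 fit, and each library left out. The likelihood ratio test used the trended dispersion, with none estimated per gene. On simulated data it made more false calls than quasi-likelihood. Total counts were 9869584 to 18837153 per library. No 2 libraries were duplicates (231 pairs checked).

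Differences between regions used the same mice: PFC and striatum deviations had a median correlation of 0.3 over 21 mice, PFC and SN 0.217 over 22 mice, the pairing being given by the mouse numbers in the labels. The Nestin-Cre library N_PFC_WT_4575 comes from a mouse whose striatum and SN libraries carry the HOM label; it was kept, and a fit without it was an alternative.

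The members and lists were chosen with earlier results of these data known. Genes were named by rule: Gdnf with its receptors and dopamine genes, the 10 with the smallest p in each direction (mean of at least 1 cpm), the 6 largest differences in each direction among genes without overlap and among likelihood ratio calls (mean of at least 2 cpm), and up to 4 genes per list. Smooth muscle, nuclear RNA, protocadherin, Hedgehog and plasma cell lists, 26 further genes, the fits with covariates and the likelihood ratio fit without HET_3676 were chosen after the values were seen. Predicted genes are not named, and some genes that the rule names are not reported here.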

Additional observations from a re-analysis of the deposited data

Results flagged for a closer look

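Within each group of libraries a value far from the others was looked for with Dixon's ratio, at a level that chance alone reaches in about 1 in 20 groups. It was found in 23 of 370 groups (6.22%). HET_3676 held 6 of these: Ttr 1162, F5 17.1 and Kl 30.64 cpm, and mean log2 levels, relative to WT, of 3.62 for choroid plexus, -0.5175 for MHC class I and 0.2885 for glucocorticoid-responsive genes. HET_3652 stood apart in H2-Ab1 (5.612 cpm), the MHC class II level (0.1549) and the oligodendrocyte level (0.1824).

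WT_3576 lay far from its group in Th (35.94 cpm), Omp (12.45) and Doc2g (57.61). WT_3588 had the highest Gbp3 (9.05 cpm), Oasl2 (11.86) and C3 (3.201). Values far from the group were also S1pr1 in WT_3649 (175.3 cpm), Epb41l2 in WT_3587 (135), Chrna5 in WT_3578 (4.804), B2m in WT_3585 (68.71) and Mbp in WT_3677 (1981). In HET libraries they were Sqle in HET_3688 (75.52 cpm), and Cntnap2 (88.01) and Epha5 (74.41) in HET_3586.

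For 13 genes the HET minus WT difference departed between AAV-Cre and Nestin-Cre PFC (edgeR quasi-likelihood at the threshold of 0.1). The log2 differences between the models were 0.4447 for Spata5, 0.3281 for Atp6v1h, 0.2829 for Ran, 0.2757 for Sqle, 0.6372 for Htr2a and 0.3912 for Cox5a. They were -0.4942 for Cldn10, -0.4484 for S1pr1, -0.7446 for Gli3, -0.3442 for Daam2, -0.5028 for Gja1, -0.6185 for Meg3 and -0.5371 for Smpd4.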

How the results depend on the processing

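For 193 named genes 4016 of 4246 values under the alternatives kept their sign and side of the threshold, 123 had no adjusted p in DESeq2 (121 kept their sign), 86 passed it (56 genes under the likelihood ratio test, 6 under DESeq2) and 23 in 10 genes reversed. The count of 0 for HET versus WT became 248 under the likelihood ratio test, 6 of 2717 under DESeq2, 1 with only WT and HET libraries and 193 with 3 regions in 1 fit. Genes higher at an unadjusted p under 0.05 were 961, 1447 with 3 regions in 1 fit, and 487 to 1370 without 1 library. The 248 became 113 without HET_3676. Under the likelihood ratio test HET versus HOM gave 89, PFC against striatum 34, PFC against SN 461 and AAV-Cre against Nestin-Cre 478. By quasi-likelihood the last gave 100, which became 208 without N_PFC_WT_4575 and 961 with tissue covariates. The cause was not tested.

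With the mice as a replicate block, the paired fits gave 0 for PFC against striatum and 0 for PFC against SN, as without it; no other result was fitted with a block.

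Signs reversed for Ret (-0.02519 to 0.109 without 1 library, -0.03302 with covariates), Adora2a (-0.1597 to 0.2026; 0.08475), Drd2 (-0.2557 to 0.07506), Drd3 (-0.0393 to 0.4766) and Ppp1r1b (-0.1761 to 0.0466). They reversed for Ttr (-0.2033 to 6.03; -0.1297 in DESeq2), Kl (-0.2262 to 1.067; -0.1969 in DESeq2), and, with covariates, Trh (-0.05235), Doc2g (-0.1319) and Cdhr1 (-0.05858). Adora2a, Doc2g and Cdhr1 belong to the marker lists that made the covariates, so their covariate values say nothing about tissue content. Of 800 medians of 50 lists 793 moved by less than the SD of the WT libraries, the exceptions being choroid plexus (-0.2148 to 1.189 without 1 library) and inhibitory neurons (0.002742 to 0.1287).

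Without 1 library 43 of 700 list medians had another sign, in 13 lists: dopamine and adenosine receptors (-0.1236 to 0.07506), neuropeptides (-0.04217 to 0.0657), immediate-early genes (-0.07083 to 0.1348), striatal markers (-0.1332 to 0.07478), the GDNF family (-0.03978 to 0.02391), dopamine synthesis (-0.05931 to 0.01923), postsynaptic scaffold, neurotrophins, respiratory chain, heat shock, glucocorticoid-responsive genes, genes within 10 Mb of Gdnf and choroid plexus. The other 37 lists kept their sign. With covariates the sign turned for olfactory markers (-0.01775), dopamine and adenosine receptors (0.07995) and neuropeptides (-0.01709). The covariates were the mean levels of the olfactory and striatal marker lists themselves. A value near 0 for the olfactory markers was therefore fixed in advance. Drd1, Drd2 and Adora2a of the receptor list were among the striatal markers.

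There were 7 mice a group, and Gdnf itself had 5 to 22 counts per PFC library. Bulk RNA cannot separate cell number from RNA per cell. Tissue content varied between libraries, and where Cre acted was not measured.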

Other observations

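Genes of the Hedgehog pathway, through which neurons signal to astrocytes in the adult cortex, were looked at as a list after Gli3 had been seen. In HET PFC 11 of 12 were lower with a median log2 fold change of -0.11, against -0.0022 over all genes tested. Their summed level was 213.6 to 241 cpm in WT (median 228) and 199.7 to 215.6 cpm in HET (median 206.6), with Ptch1 the most abundant (-0.12), and 4 HET libraries lay below every WT library in mean log2 level. Gli2 had -0.43, at 6.79 to 10.8 cpm in WT and 5.82 to 7.47 cpm in HET.

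Circadian clock genes were higher in 13 of 16 in HET PFC with a median of 0.10, and all 7 HET libraries were above the WT median of the list. By edgeR quasi-likelihood 0 had an unadjusted p under 0.05, and the likelihood ratio test called 0. The median was 0.10 in the striatum and 0.03 in the SN of HET mice. The time of dissection is not given in the labels.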
